A study of Nothobranchius furzeri with 20 samples.

Results

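The genes described here were raised in the first 5 of 10 muscle libraries of exercised turquoise killifish aged 27 weeks. In the other 5 they stayed near the level of young fish. They were chosen by their measured values, in CPM, each count scaled to the library's own total. Each gene had to be higher in every one of 27-week libraries 1 to 5 than in any of libraries 6 to 10. Its mean in libraries 1 to 5 had to reach 5 CPM and 2 times the mean of libraries 6 to 10. The mean of libraries 6 to 10 had to lie within 1.5-fold of the mean of the 9-week libraries. Of 26739 genes in the table, 1207 met these conditions, and the 200 with the largest ratio between the 2 sets of 27-week libraries were kept as members.

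RNA sequencing of muscle from male Nothobranchius furzeri, an annual fish with a short life span, gave 20 libraries. All came from strain MZM-04/10p. Fish aged 27 weeks with the perturbation swim-tunnel gave 10 libraries, fish aged 9 weeks with swim-tunnel gave 5, and fish aged 9 weeks with the perturbation none gave 5. A swim tunnel makes a fish swim against a current. The sources used here give neither its duration nor its speed. Libraries 1 to 5 and 6 to 10 of the 27-week group follow the order of the sample codes and carry the same age, sex, strain, tissue and perturbation, so nothing in the labels says what separates them. The labels do not name the animals, and p-values over libraries therefore measure only the spread between these samples, which may be technical. The table names genes by identifier only, and none of the identifiers matched the reference table, so no function can be given to a member and muscle, blood or immune marker genes could not be looked up. The label of the tissue was therefore not checked against markers.

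Skeletal muscle is built mostly of long, multinucleate fibres, and fast and slow fibres differ in their contractile proteins and metabolism. RNA of bulk muscle also holds transcripts of fibroblasts, vessels, nerve, blood and immune cells that lie between the fibres. Transcripts of contractile proteins and glycolytic enzymes are usually among the most abundant in muscle. A gene at a few CPM may be a minor transcript of fibres or a major one of a rarer cell type. In such samples a change in the number of cells of a type and a change in RNA per cell cannot be told apart.

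The 2 sets of 27-week libraries overlapped in depth. Library totals ran from 25549097 to 34331958 counts in 27-week libraries 1 to 5, from 28431822 to 33367760 in libraries 6 to 10, from 24333849 to 38007162 in exercised fish of 9 weeks and from 29504450 to 38571967 in unexercised fish of 9 weeks. The TMM factor, which rescales a library by the bulk of its genes, was 1.15 ± 0.0665 (SD, n = 5) in libraries 1 to 5 and 0.86 ± 0.0703 (SD, n = 5) in libraries 6 to 10, with 1.002 ± 0.102 (SD, n = 5) for exercised fish of 9 weeks and 1.02 ± 0.0784 (SD, n = 5) for unexercised ones. Over the 8627 tested genes with at least 5 CPM in libraries 1 to 5, the median log2 ratio of libraries 1 to 5 to libraries 6 to 10 was 0.40 in CPM and -0.02 after TMM scaling. Ratios in CPM below include this shift, and a batch that follows the sample codes cannot be told apart from the sets.

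The step between the 2 sets of old fish was the value that chose the members, so it is described without a test. A total of 4886 genes were higher in every one of libraries 1 to 5 than in any of libraries 6 to 10, and 3235 of them reached 5 CPM. Of these, 1472 were at least 2 times higher, and 228 genes were at least 2 times lower in libraries 1 to 5 with no overlap and at least 5 CPM in libraries 6 to 10. After TMM scaling these counts were 560 higher and 637 lower, so the excess of higher genes in CPM was not kept. The condition on young fish removed 78 genes whose mean in libraries 6 to 10 was more than 1.5-fold above young fish and 187 that were more than 1.5-fold below.

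The members ranged from 3.63 to 38.6 in the ratio of mean CPM in libraries 1 to 5 to that in libraries 6 to 10, with a median of 4.33. The next gene, left out by the limit of 200, also stood at 3.63, and the median of the 1007 genes left out was 2.41. Among members 28 had a ratio of at least 6, 113 one from 4 to 6 and 59 one below 4. The lowest mean of a member in libraries 1 to 5 was 5.07 CPM. With the same ratio, 115 genes fell short of 5 CPM, the highest of them at 4.79 CPM. The mean of libraries 6 to 10 over that of young fish ran from 0.672 to 1.49 among members, and the nearest genes outside stood at 0.664 and 1.52. The ratio had a median of 0.958, and 111 members were lower in libraries 6 to 10 than in young fish.

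In level, most members were modest transcripts. The median member had 13.2 CPM in libraries 1 to 5, with quartiles of 8.50 and 24.9 CPM. The median was 2.95 CPM in libraries 6 to 10, 3.35 CPM in exercised young fish and 2.82 CPM in unexercised young fish. In libraries 1 to 5, 64 members had a mean from 5 to 10 CPM, 19 had at least 50 CPM, and the rest, 58.5% of members, lay between. Only 1 member had a mean under 0.5 CPM in young fish, and 62 had at least 5 CPM there. The first count follows largely from the choice. With at least 5 CPM in libraries 1 to 5 and the 1.5-fold window, only members with large ratios could fall under 0.5 CPM. The range of means in young fish was from 0.109 to 131.3 CPM.

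Together the members held 0.519%, 0.519%, 0.549%, 0.513% and 0.583% of all counts in 27-week libraries 1 to 5. They held 0.106%, 0.145%, 0.108%, 0.108% and 0.132% in libraries 6 to 10. The share was 0.139%, 0.131%, 0.114%, 0.159% and 0.113% in exercised fish of 9 weeks, and 0.104%, 0.115%, 0.104%, 0.141% and 0.137% in unexercised fish of 9 weeks. Libraries 1 to 5 were close to each other and far above the rest, and the 3 other sets overlapped. The median member stood at 4.05, 4.29, 4.52, 4.26 and 4.50 times its mean in young fish in libraries 1 to 5, against 0.874, 1.18, 0.822, 0.849 and 0.929 times in libraries 6 to 10.

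**Figure D1:**
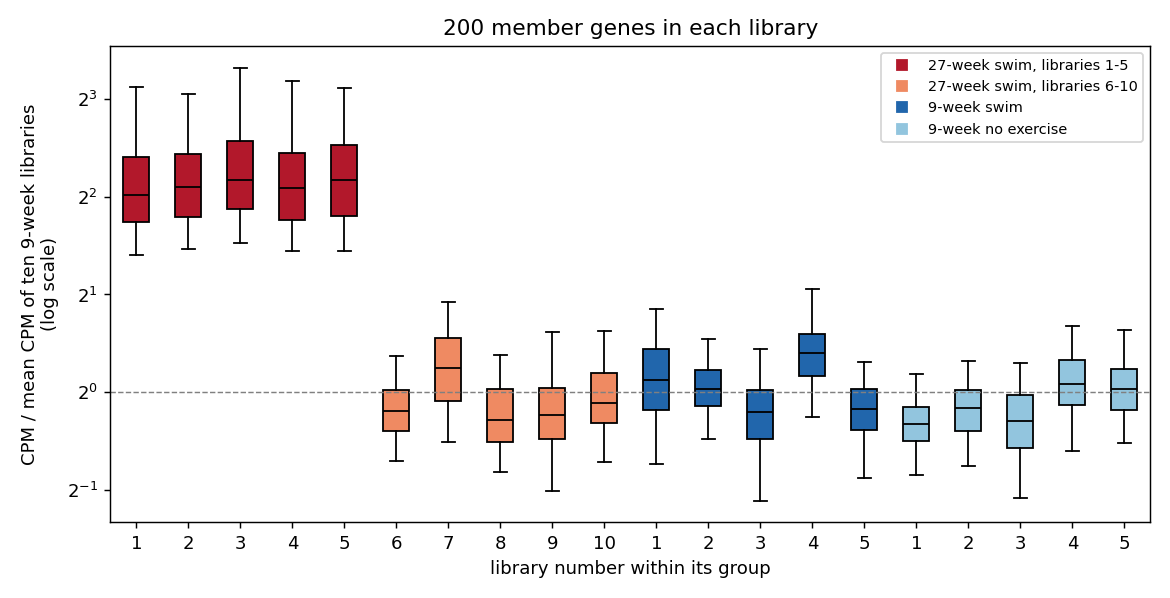
CPM of the 200 members divided by the mean CPM of all 9-week libraries (log axis), by library; boxes give quartiles and median, whiskers the percentiles 5 and 95. The medians of 27-week libraries 1 to 5 lie between 4.05 and 4.52, and those of the other 15 libraries between 0.798 and 1.32.

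The young fish entered the choice only as a mean, and no condition compared single libraries of 9 weeks with libraries 1 to 5. For 197 of the 200 members every one of libraries 1 to 5 lay above every other library of the series, as it did for 15.2% of the 16653 tested genes. This count follows largely from the choice, since the mean of the young fish was tied to that of libraries 6 to 10. In the other 3 members the highest of the remaining libraries was a 9-week library. Their lowest value in libraries 1 to 5 and the highest elsewhere were 5.85 and 6.09 CPM, 53.2 and 60.8 CPM, and 29.4 and 45.9 CPM. The lowest value in libraries 1 to 5 was 2.84 times the highest in libraries 6 to 10 in the median member and 1.104 times in the closest.

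Libraries 1 to 5 were alike in these genes. The coefficient of variation of the median member was 12.4% within libraries 1 to 5, 24.3% within libraries 6 to 10, 25.5% within exercised and 23.7% within unexercised young fish. Other tested genes with at least 5 CPM in libraries 1 to 5 had 14.0%, 18.0%, 18.4% and 17.0% in the same order. These genes were not matched to the level of members in the other sets, where members were lower and counting error weighs more. The condition of no overlap selects genes with little spread, so the values within the 27-week sets are partly set by the choice. The highest of libraries 1 to 5 was 1.35 times the lowest in the median member and under 1.5 times in 71.0% of members, with the largest at 6.92 times. In CPM, library 3 was the highest for 78 members, library 5 for 52, library 2 for 34, library 1 for 19 and library 4 for 17. These counts include shifts of a whole library. The median ratio of the other genes to young fish was also highest in library 3, at 1.23, and library 5, at 1.16. It was 1.08, 1.11 and 1.11 in libraries 1, 2 and 4. After TMM scaling the median member ratio was highest in library 4, with 3.71, 3.53, 3.76, 3.99 and 3.97 in libraries 1 to 5.

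The member with the largest ratio, Nfu_g_1_015122 (1644 bases), was close to silent outside libraries 1 to 5. It had 5.01, 4.78, 6.67, 3.73 and 5.79 CPM in libraries 1 to 5, and 0.134, 0.106, 0.0599, 0.171 and 0.202 CPM in libraries 6 to 10. It had 0.254, 0.116, 0.0789, 0.103 and 0.0411 CPM in exercised young fish, and 0, 0.13, 0.0631, 0.192 and 0.114 CPM in unexercised young fish. Library 3 held 177 counts, the most of any, and each of the 15 libraries outside libraries 1 to 5 held 0 to 8 counts. The library with a count of 0, unexercised library 1, allows up to 0.102 CPM by counting error alone. The mean in libraries 1 to 5 was 5.19 ± 1.104 CPM (SD, n = 5), and that in libraries 6 to 10 was 0.135 ± 0.0556 CPM (SD, n = 5), a ratio of 38.6, while the next member had a ratio of 13.5. It passed the filter on low counts only through libraries 1 to 5, where it was chosen as high, and was not tested without them. With 8 counts or fewer in each young library its fitted log2 fold change with swimming, 0.27 (SE 1.32), says nothing about the young groups.

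The member with the highest mean in libraries 1 to 5, Nfu_g_1_005991 (5014 bases), was well expressed at both ages. It had 501.5, 487.4, 393.3, 527.7 and 706.6 CPM in libraries 1 to 5, against 109.5, 123.1, 122.9, 108.0 and 219.5 CPM in libraries 6 to 10. In young fish it had 176.0, 148.7, 116.98, 189.6 and 104.3 CPM with exercise, and 106.0, 96.5, 84.7, 119.385 and 171.1 CPM without. Library 10 was the highest of libraries 6 to 10 and still lay below all of libraries 1 to 5, and the young groups overlapped. The mean was 523.3 ± 114.3 CPM (SD, n = 5) in libraries 1 to 5 and 136.6 ± 46.9 CPM (SD, n = 5) in libraries 6 to 10, a ratio of 3.83. Between exercised and unexercised young fish the log2 fold change was 0.37 (SE 0.39) and did not pass the test (edgeR adjusted p = 0.749).

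**Figure D2:**
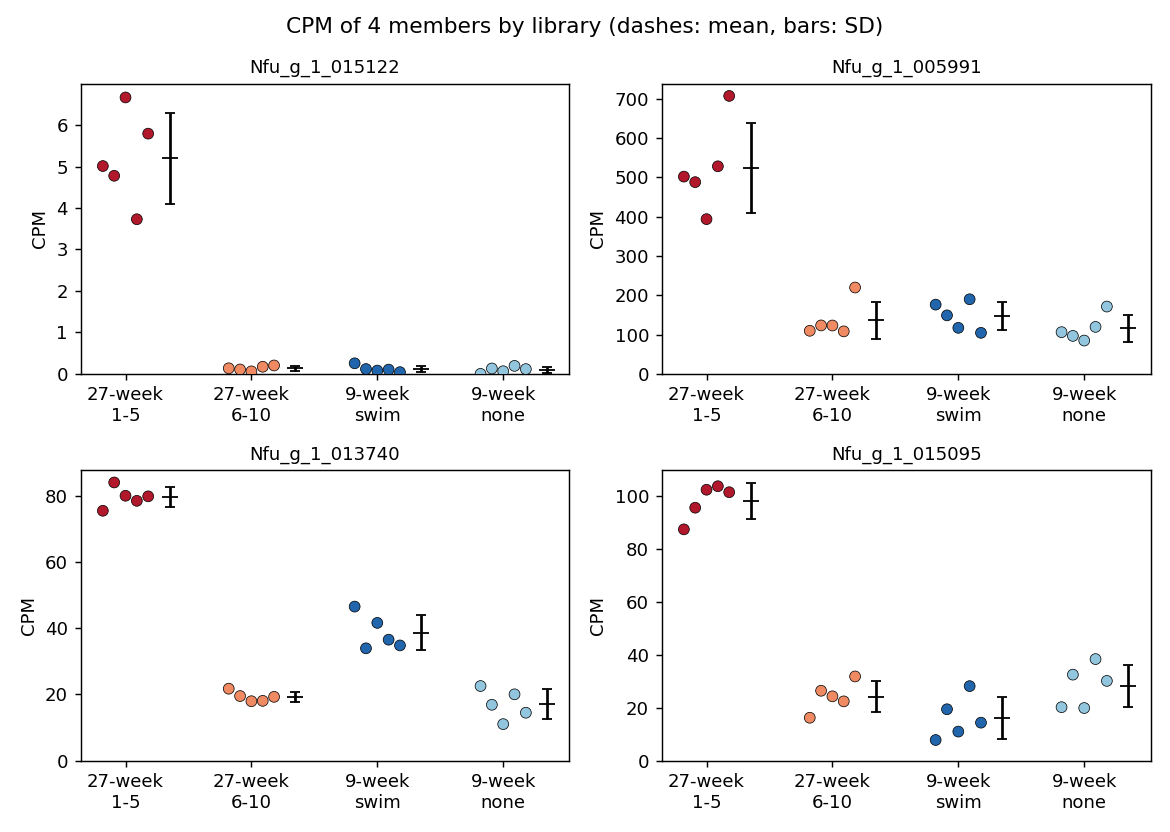
CPM of 4 members in each library, with linear axes from 0, in 27-week libraries 1 to 5, 27-week libraries 6 to 10, exercised and unexercised fish of 9 weeks (points: libraries; dashes and bars: mean and SD, n = 5). In each panel the 5 dark red points lie above all others, and in Nfu_g_1_013740 the exercised young fish, at 33.9 to 46.5 CPM, also lie above libraries 6 to 10 and the unexercised young fish.

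The step was also read in libraries left out of the choice of genes. Each 27-week library was left out in turn, the rule was applied to the other 19 libraries, and the library left out was then read for the 200 genes so chosen. Left-out libraries 1 to 5 had 195, 200, 199, 200 and 199 of these 200 genes above every one of libraries 6 to 10. Over all genes that averaged 5 CPM or more in the other 9 libraries of 27 weeks, the share was between 44.9% and 56.1%. Left-out libraries 6 to 10 had 200, 199, 196, 199 and 197 of the 200 chosen genes below every one of libraries 1 to 5, and between 45.1% and 59.5% of all genes at that level. A difference of at least 2-fold from the mean of the opposite set was seen for 193 to 200 of the chosen genes, against 14.1% to 24.4% of all genes at that level. The lists chosen without 1 library shared 173 to 192 genes with the members. Each library left out was compared with every library of the opposite set, and the values of that set had served to choose the genes. The shares are thus partly set by the choice. The 2 sets themselves were known from these data, the library left out included. The reading is therefore not independent, and no p-value is given.

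**Figure D3:**
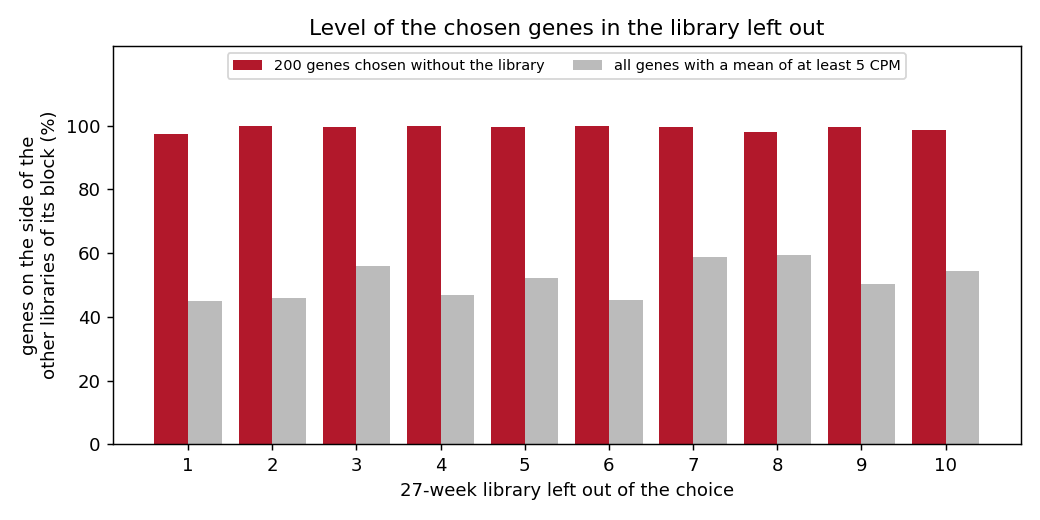
Share of genes (%) in which a 27-week library lay on the side of its own set, above every one of libraries 6 to 10 (libraries 1 to 5) or below every one of libraries 1 to 5 (libraries 6 to 10). Dark bars are 200 genes chosen without that library, the lowest at 97.5%, and grey bars all genes averaging 5 CPM or more, between 44.9% and 59.5%. The opposite set had served to choose the 200 genes.

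TMM scaling changes all genes of a library by a single factor, and members were kept for the largest ratios in CPM. A step that remains after this scaling was therefore largely set by the choice, and its size is a description. With TMM scaling the median ratio of libraries 1 to 5 to libraries 6 to 10 was 3.22 and the lowest 2.67. Of the 200 members 198 had no overlap, which largely repeats the choice, since all 200 had none in CPM. Over all 26739 genes, 560 were then higher without overlap, with a mean of at least 5 and at least 2 times that of libraries 6 to 10. The median member then stood at 3.88 times its mean in young fish in libraries 1 to 5, against 1.14 times in libraries 6 to 10. With CPM the same medians were 4.42 and 0.958. Under TMM scaling 21 members were more than 1.5-fold above young fish in libraries 6 to 10 and none was more than 1.5-fold below, and 188 members reached a mean of 5 in libraries 1 to 5. As a result 168 of the 200 members met all conditions, and 459 genes did so in all, against 1207 in CPM.

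**Figure D4:**
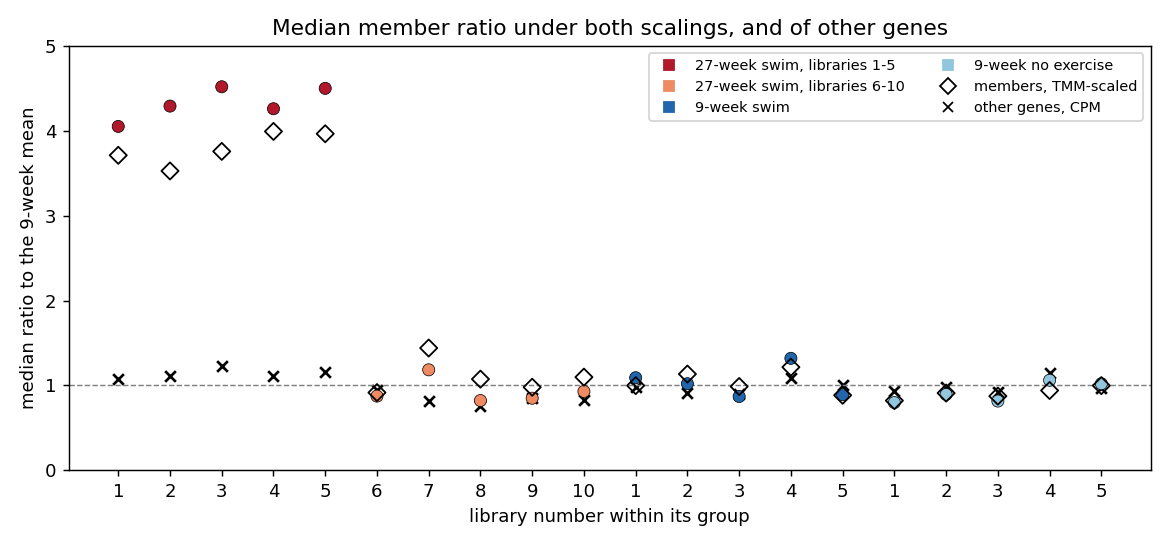
Median over genes of the ratio to the 9-week mean, by library: members in CPM (filled circles), members after TMM scaling (open diamonds) and other tested genes with at least 5 CPM in 27-week libraries 1 to 5, in CPM (crosses). The members of libraries 1 to 5 lie between 4.05 and 4.52 in CPM and between 3.53 and 3.99 after TMM scaling, and the other genes between 1.08 and 1.23.

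Library 7 stood above the rest of libraries 6 to 10 in these genes. It held the highest value of libraries 6 to 10 for 123 members, against 30 for library 10, 23 for library 9, 17 for library 6 and 7 for library 8. The median member was at 1.18 times its mean in young fish in library 7 and between 0.822 and 0.929 times in the other 4. After TMM scaling library 7 stood at 1.44 times and the others between 0.915 and 1.097. Still, its median lay well below the 3.53 of the lowest of libraries 1 to 5.

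The labelled comparison of ages set all 10 libraries of 27 weeks against the 5 exercised libraries of 9 weeks. Its members' values repeat the choice and are counts only. Called higher at 27 weeks were 71.5% of the 200 members, beside 14.8% of all 16653 tested genes (edgeR, adjusted p under 0.05 by Benjamini-Hochberg). Leaving out exercised young library 5 gave 79 members, beside 10.4% of tested genes, and leaving out library 3 gave 91, beside 11.8%. Without libraries 6 to 10 it was 199 of 200 members, beside 22.4% of 16469 genes. Without libraries 1 to 5 it was 6 of 199 members tested, beside 9.95% of 16073 genes, and 11 members were called lower, beside 13.5%. Against unexercised fish of 9 weeks, 180 members were called higher, beside 21.2% of tested genes. Without libraries 6 to 10 all 200 were, beside 27.1%, and without libraries 1 to 5 there were 19 of 199, beside 12.0%.

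Nfu_g_1_013740 and Nfu_g_1_015095 show how a mean over all 27-week libraries falls between the sets. Nfu_g_1_013740 had a mean of 49.4 ± 31.8 CPM (SD, n = 10) at 27 weeks and 38.6 ± 5.30 CPM (SD, n = 5) in exercised young fish, although none of the 10 libraries was between 21.7 and 75.4 CPM. Nfu_g_1_015095 had 61.2 ± 39.4 CPM (SD, n = 10) at 27 weeks and 16.1 ± 7.99 CPM (SD, n = 5) in exercised young fish, with no 27-week library between 31.8 and 87.4 CPM.

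Swimming at 9 weeks was the one labelled comparison that the choice did not use, since young fish entered it only as the mean of all 10 libraries. All 200 members passed the filter on low counts, and 199 did so in the 9-week libraries alone. None was called between exercised and unexercised fish, beside 0.18% of all tested genes (edgeR, adjusted p under 0.05; the lowest adjusted p of a member was 0.168). DESeq2 and limma-voom called 0 members as well, beside 2.12% and 0.222% of all tested genes. At an unadjusted p under 0.05, 6 members were found, all 6 higher with exercise, which is fewer than the 13.6% of tested genes that reached it. These fits, DESeq2 and limma-voom included, take the spread of a gene from all 20 libraries. For members that spread includes the step between the 27-week sets. In the edgeR fit the median standard error of the log2 fold change was 0.43 for members and 0.25 for all tested genes.

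With the 9-week groups fitted alone, 5 of 199 members were called, all of them higher with exercise, beside 0.611% of 15552 genes called higher. Their log2 fold changes ran from 0.66 to 1.28. At an unadjusted p under 0.05, 41 members were higher, beside 10.6% of tested genes, and 9 were lower, beside 9.34%. The number of called members was between 1 and 13 when each of the 10 libraries was left out in turn. It was 13 without exercised library 4, 12 of them higher, beside 2.1% of tested genes called higher, so the count over all genes moved as well. All members called in the other 9 fits were higher. Without exercised libraries 1, 2, 3 and 5 there were 3, 2, 1 and 4, beside 0.306%, 0.0569%, 0.0568% and 0.265% of tested genes. Without unexercised libraries 1 to 5 there were 3, 1, 1, 2 and 1, beside 0.304%, 0.019%, 0.0189%, 0.0826% and 0.0319%. With 27-week libraries 6 to 10 left out of the joint fit 19 members were called, all higher, beside 1.88% of tested genes. With libraries 1 to 5 left out 9 were, all higher, beside 1.16%. Both of these joint fits also take spread from 27-week libraries, where the choice favours genes with little spread. Their counts of members are therefore partly set by the choice. Over all genes and both directions these fits called 522 and 328, against 30 with all libraries. The 9 were among the 19.

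The members, like all 1207 genes that met the conditions as a whole, leaned towards higher values in exercised young fish. Their log2 fold changes had a median of 0.21 and quartiles of -0.01 and 0.42, against a median of 0.04 and quartiles of -0.19 and 0.27 over all tested genes. The median of those 1207 genes, members included, was 0.15. The fold change was positive for 149 of 200 members, or 74.5%, and for 54.5% of tested genes. Every exercised library lay above every unexercised one for 15 members, or 7.50%, beside 2.25% of tested genes, and the reverse held for 0 members, beside 1.82%. Exercised library 4 had the highest median of the young fish, at 1.32 times the mean of all young fish. Without it the median log2 fold change was 0.13 for members and 0.035 for all tested genes, and 68.0% and 53.9% were positive. Members vary together across the same young libraries, so they are not independent observations. A shift shared by a few libraries moves many of them at once, and the lean was not tested.

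**Figure D5:**
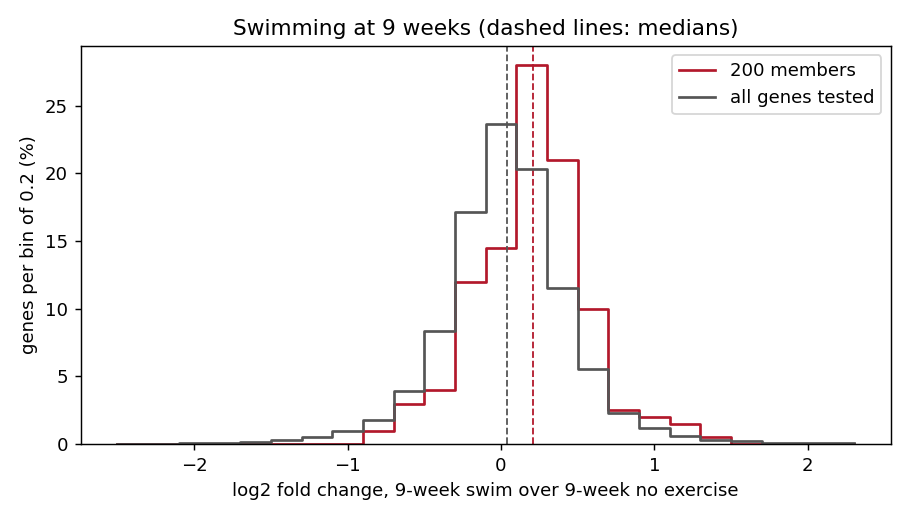
Distribution of the log2 fold change, exercised over unexercised fish of 9 weeks, in bins of 0.2, as a percentage of the 200 members and of all 16653 tested genes. The medians, drawn as dashed lines, are 0.21 for members and 0.04 for all tested genes, and the curves overlap.

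Of the members, Nfu_g_1_013740 (4349 bases) had the smallest p among those with a positive log2 fold change in this comparison. It had 46.5, 33.9, 41.6, 36.5 and 34.8 CPM in exercised young fish and 22.5, 16.9, 11.0, 20.0 and 14.5 CPM in unexercised ones. It had 75.4, 84.0, 79.9, 78.4 and 79.8 CPM in 27-week libraries 1 to 5 and 21.7, 19.5, 17.9, 18.0 and 19.2 CPM in libraries 6 to 10. The young groups did not overlap, and libraries 6 to 10, labelled swim-tunnel, lay within the range of the unexercised young fish. This gene was picked by its p, and the choice had tied libraries 6 to 10 to the mean of all young fish, here at 0.693 times. The median member had 2.95 CPM in libraries 6 to 10, 3.35 CPM in exercised and 2.82 CPM in unexercised young fish. The log2 fold change with swimming was 1.22 (SE 0.38, edgeR adjusted p = 0.168). It passed the test in the fit of the 9-week groups alone (log2 fold change 1.22, edgeR adjusted p = 0.0195). In all it passed in 3 of 19 alternatives, with adjusted p from 0.0023 to 0.324. The joint fits without libraries 1 to 5 (edgeR adjusted p = 0.0023) and without libraries 6 to 10 (0.0032) also passed. Both take spread from 27-week libraries, where the choice favours genes with little spread. The alternatives that did not pass hold both 27-week sets, whose step enters the spread. The tally is therefore partly set by the choice. With the 9-week groups alone and 1 library left out, Nfu_g_1_013740 passed in 6 of 10 fits, with adjusted p from 0.00718 to 0.0607.

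Nfu_g_1_015095 (3595 bases) had the smallest p among members with a negative fold change. It had 7.79, 19.4, 11.0, 28.2 and 14.3 CPM in exercised and 20.2, 32.5, 19.9, 38.4 and 30.1 CPM in unexercised young fish, so the groups overlapped. In libraries 1 to 5 it had 87.4, 95.6, 102.4, 103.8 and 101.5 CPM, and in libraries 6 to 10 it had 16.2, 26.4, 24.3, 22.4 and 31.8 CPM. The log2 fold change with swimming was -0.77 (SE 0.43) and did not pass (edgeR adjusted p = 0.458, and from 0.0975 to 0.656 under 19 alternatives).

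The members also varied together among the young fish, where the choice had used no single library. Over the 10 libraries of 9 weeks the mean Pearson correlation between pairs of members, on log2 CPM, was 0.287. It was 0.234 between the 1007 genes that met the conditions but were left out by the limit, and 0.107 between 3555 tested genes that did not meet them and had a mean in young fish between the quartiles of the members. After TMM scaling these values were 0.188, 0.112 and 0.00939. With each young group centred on its own mean, in CPM, they were 0.295, 0.253 and 0.125. All pairs share the same 10 libraries and their depth, and genes are not independent, so these are descriptions. The share of members above their own mean over young fish differed between libraries, and in CPM it includes shifts of a whole library. It was 64.0%, 56.0%, 29.0%, 86.5% and 29.5% of members in exercised libraries 1 to 5, and 12.0%, 29.5%, 21.5%, 63.0% and 53.0% in unexercised libraries 1 to 5. After TMM scaling exercised libraries 4 and 2 led, with 157 and 152 members, and unexercised library 1 stayed lowest with 29.

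Among libraries 6 to 10 the mean pairwise correlation of members was 0.254 in CPM and 0.335 after TMM scaling, against 0.140 and 0.117 between the 1007 genes left out by the limit and 0.133 and 0.00621 between the 3555 genes of like level. Within libraries 1 to 5 it was 0.0925 and 0.112 for members, below the 0.120 and 0.140 of the 1007 genes, and 0.0895 and 0.0502 for the genes of like level. Library 7 held the highest value of libraries 6 to 10 for 123 members, and the correlation was not taken without it. How much of it rests on that library was not tested. With 5 libraries each, and with values the choice had partly used, these are weak descriptions.

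In length the members lay within the range of other genes. Lengths recovered from count and RPKM ran from 426 to 11311 bases for the 200 members, with a median of 3083 bases and quartiles of 1768 and 4884 bases. The 8626 tested genes with a length and at least 5 CPM in libraries 1 to 5 had a median of 3351 bases and quartiles of 1801 and 5574 bases. Across members, which are not independent, the Spearman correlation of the ratio with length was 0.0354. Per kilobase, the median member had 5.39 CPM in libraries 1 to 5, where the median tested gene had 2.53 CPM per kilobase. It had 1.16 CPM per kilobase in libraries 6 to 10, 1.22 in exercised and 1.14 in unexercised young fish. In libraries 1 to 5, 164 members lay above the median tested gene of these libraries, and in libraries 6 to 10, where that median was 1.84 CPM per kilobase, 61 did. The level in libraries 1 to 5 entered the choice.

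In the numbering of genes 1 pair of members had consecutive identifiers, and 5 pairs stood in neighbouring rows of the table. No other set of genes was counted in this way, so whether members lie closer together than other genes was not tested.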

How the data were processed

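Total RNA of muscle was made into libraries with a TruSeq RNA kit, per the labels' protocols. Tools listed in the submitters' processing notes were featureCounts 1.4.6-p4, STAR 2.4.1d and bcl2fastq 1.8.4. The build, annotation and strand setting were not given in the sources used here. Overlapping, antisense and near-identical genes cannot be told apart. The authors deposited raw counts per gene and RPKM values for 26739 genes in 20 libraries, and 0 columns were left over. Counts summed to between 24333849 and 38571967 per library, and intervals from counts cover counting error only. In the deposited RPKM values the library totals ran down the rows in turn, so RPKM served only for gene lengths and 1 alternative. Lengths implied by both tables varied between libraries by a median SD of 8.55e-05 log2 units with totals so assigned and 0.248 with own totals, over 7616 genes.

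CPM used own column totals. Counts were tested with edgeR 4.0.16 in R 4.3.3 (filterByExpr with a minimum count of 10, which left 16653 genes, TMM, robust quasi-likelihood, 3 label groups, Benjamini-Hochberg over all tested genes, threshold 0.05). DESeq2 1.42.0 and limma 3.58.1 (voom) were alternatives. Correlations used log2(CPM + 0.5). Groups came from age and perturbation, and library numbers follow the sample codes and pair nothing. The test was checked on counts simulated without a step inside the 27-week group, so the check does not cover genes with such a step. The members, the 2 sets of 27-week libraries and the lists were chosen with earlier results of these data known. Marker lists by symbol were written down but not evaluated, since 0 of 26739 identifiers matched the 38438 genes of the NfurGRZ-RIMD1 table. With no symbols, the naming rule took 4 identifiers: the largest ratio, the highest mean in libraries 1 to 5, and the smallest p in each direction with swimming.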

Additional observations from a re-analysis of the deposited data

Results flagged for a closer look

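Dixon's test looked for a library far from the others of its set in 7 measures: the share of counts, the median ratio in CPM and after TMM scaling, and the CPM of the 4 identifiers named. The sets were 27-week libraries 1 to 5, 27-week libraries 6 to 10, exercised and unexercised fish of 9 weeks, which made 28 tests. In Nfu_g_1_005991, 27-week library 10 stood apart at 219.5 CPM, with the rest of libraries 6 to 10 between 108.0 and 123.1 CPM. The gap was 0.864 of the range of the set. Chance gives about 1 such case in 20 tests, or 1.4 here, and 1 was found.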

How the results depend on the processing

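The number of genes that met the conditions was 459 with TMM scaling, 459 with upper-quartile scaling and 455 with DESeq2 size factors, and 168, 169 and 173 of the members were among them. It was 2278 at 1.5 times, 361 at 3 times and 1853 with a floor of 1 CPM. The other alternatives, leaving out each library included, stayed within 1.5 times of 1207. Members called with swimming at 9 weeks numbered 5 with the 2 groups alone, 9 when 27-week libraries 1 to 5 were left out and 19 when libraries 6 to 10 were, and 0 under every other alternative run. The alternatives with 0 all hold both 27-week sets, whose step enters the spread of members. They are thus not separate evidence on swimming. The fits that gave 9 and 19 take spread from 27-week libraries, where the choice favours genes with little spread. In the fit of the 9-week groups alone, leaving out 1 library, chosen after seeing the data, gave 1 to 13. Members called between 27 weeks and exercised young fish numbered 66 with limma-voom (beside 13.5% of tested genes called higher), 53 at 0.01 (6.95%), 17 without libraries 1 to 5 (6 higher and 11 lower), and 79 to 171 with 1 library left out (10.4% and 16.9%), where 79 and 91 came without exercised young libraries 5 and 3. Against unexercised young fish they numbered 113 at 0.01 (11.8%) and 19 without libraries 1 to 5. The mean of the library medians in libraries 1 to 5 was 4.32 times the level of young fish in CPM and 3.79 with TMM, and the mean pairwise correlation in young fish was 0.188 with TMM, an alternative added after seeing the data. The lowest share in a left-out library, 97.5%, was the same at 1.5 and 3 times, since the limit of 200 decided the list. The fitted log2 fold change of Nfu_g_1_015122 with swimming, which rests on 0 to 8 counts per young library in a gene that passed the filter only through libraries 1 to 5, ran from -0.14 (without exercised library 1) to 0.54 with 1 library left out, and was -0.0030 without unexercised library 1. The causes of these changes were not tested. No paired analysis was possible because the labels give no replicate numbers.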
